A study of Homo sapiens with 5 samples.

Results

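The mRNA levels of the dual-specificity MAP kinase phosphatases were examined in RPE1 cells, an established, immortalized line of human retinal pigment epithelial cells. The members are DUSP1, DUSP2, DUSP4, DUSP5, DUSP6, DUSP7, DUSP8, DUSP10, DUSP14 and DUSP16, which were taken by gene symbol from the table of raw counts, 10 genes of 26485. RNA-seq of poly-A RNA was available for 5 libraries of wild-type RPE1 cells, collected after 18 h of treatment. Of these, 2 were treated with DMSO, the solvent control, 2 with 0.2 μM doxorubicin and 1 with 0.34 μM doxorubicin. These doses follow the titles and the treatment labels. The protocol text has 200 and 340 uM instead. Doxorubicin is a DNA intercalator that poisons topoisomerase II, and the comparison asks how its presence altered mRNA levels in these cells. The study's methods name the libraries biological replicates and joined the 3 doxorubicin libraries into 1 group, which was also done here. Nothing was replicated at 0.34 μM.

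MAP kinases (ERK, JNK and p38) are switched on when an upstream kinase phosphorylates a threonine and a tyrosine in their activation loop, and the dual-specificity phosphatases switch them off by removing both phosphates. Many of these phosphatases are themselves transcribed in response to MAP kinase signalling and so form negative feedback loops, and the nuclear ones also respond to stress and DNA damage. The family is commonly divided into inducible nuclear enzymes, cytoplasmic enzymes that prefer ERK, enzymes that prefer JNK and p38, and small enzymes that lack the MAP kinase docking domain.

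Totals of counts on genes were between 23773061 and 36725345 per library, and the members took between 314 and 432 CPM of them (counts scaled to the library total). Levels of single genes are TMM-normalised CPM. After the filter for low counts, 14187 genes remained for edgeR's quasi-likelihood test, with a threshold of 0.01 on the Benjamini-Hochberg adjusted p. CDKN1A and MDM2, targets of p53 that served as a check of the drug response, both rose (log2 fold changes of 3.39 and 2.19, edgeR adjusted p = 0.000768 and 0.00246). Of 9 marker genes of the retinal pigment epithelium, OTX2 and MITF were well detected, while RPE65, RLBP1, TYRP1 and TTR, which define the differentiated tissue, were at or near 0 in all libraries. BEST1 and PMEL were low but lay above DMSO in all doxorubicin libraries. Their log2 fold changes were 1.88 and 2.29 (edgeR adjusted p = 0.0823 and 0.0264). Of the 5 markers of this list that were tested, 3 had a positive and 2 a negative log2 fold change, and 0 passed the threshold. The 9 markers summed to 54.9 to 88.0 CPM in DMSO and 71.7 to 80.9 CPM in doxorubicin. Among blood cell markers, CD3E and HBB had no reads, and CD68, a lysosomal protein of macrophages and other cells, stood at 76.5 to 108 CPM. The leukocyte marker PTPRC was low throughout, with 5 and 7 raw counts in the DMSO libraries and 25, 53 and 72 in the treated ones (log2 fold change 2.86, edgeR adjusted p = 0.0212). Summed over 4 epithelial markers, levels were 583 to 696 CPM in DMSO and 970 to 1176 CPM in doxorubicin. The keratins KRT8 and KRT18 took nearly all of this sum. The other epithelial markers of the list were near 0, with at most 4 raw counts in any library. The 3 endothelial markers summed to 0.381 to 2.62 CPM in DMSO and 1.01 to 3.53 CPM in doxorubicin. The part of these markers in the levels of the members was not tested.

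No member passed the threshold in edgeR. Among all genes tested the test called 4.02%, and 1.29% were called higher in doxorubicin. Of the 9 members tested, 7 had a positive and 2 a negative log2 fold change. Their median was 0.32, the value of DUSP1, beside 0.013 over all genes tested. Without DMSO replicate 2, DUSP1, DUSP7 and DUSP16 turned negative and DUSP4 turned positive, so these counts depend on that library. The levels of DUSP5, DUSP10 and DUSP14 were above both DMSO libraries in all doxorubicin libraries, a pattern that held for 24.3% of all genes tested. DUSP6 was below both DMSO libraries in all doxorubicin libraries, as were 23.4% of all genes tested. The other 5 members overlapped between the groups. DUSP5 and DUSP14 had the smallest p-values of the family, with adjusted values of 0.0101 and 0.0145 in the edgeR test. In DESeq2, which the study's methods name for its own test, both passed the threshold (adjusted p = 3.41e-08 and 1.15e-05). DESeq2 called 14.1% of the genes to which it gave an adjusted p. In bulk RNA, fewer cells that express a gene and less of its mRNA per cell cannot be told apart.

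**Figure D1:**
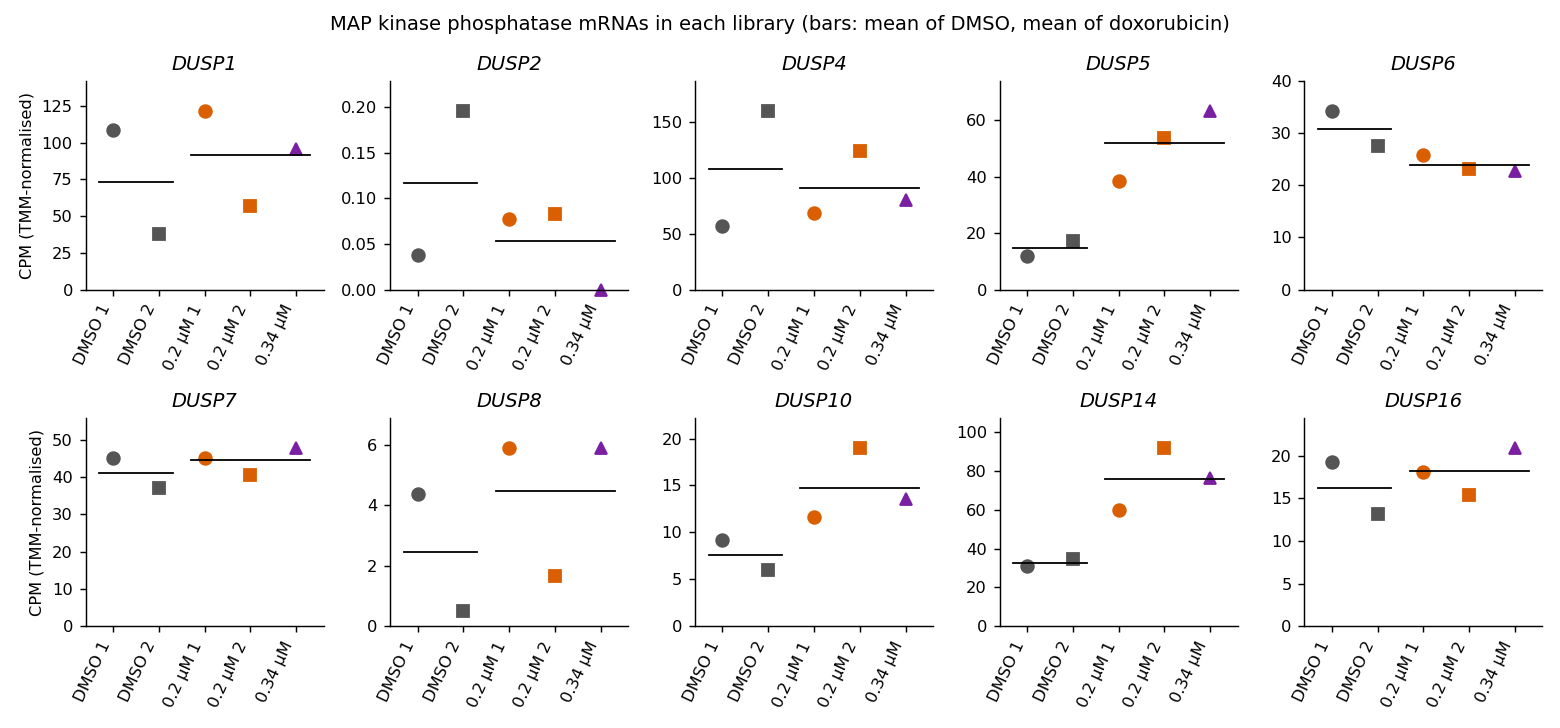
Level of each member in each library in CPM (TMM-normalised, vertical axes from 0 with a scale of their own), with lines at the DMSO mean (n = 2) and the doxorubicin mean (n = 3). DUSP5, DUSP10 and DUSP14 lie higher in all doxorubicin libraries, DUSP6 lies lower, and DUSP1, DUSP4 and DUSP8 differ more between libraries of one treatment than between the treatments.

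Promoter sequence was looked up for the members, from 250 bases before to 50 bases after the annotated start of transcription (RefSeq, GRCh38.p14). Entries were found for 8 members, 9 in all, since DUSP10 has 2 starts. DUSP4 and DUSP5 had no entry, so their promoters were not searched for any motif. The stretches below belong to DUSP1 and DUSP8, the tested members whose DMSO libraries differed most, and to DUSP14, whose level was higher in all doxorubicin libraries. In DUSP1 and DUSP8, capitals mark the cyclic AMP response element (TGACGTCA, a palindrome) and its shorter form TGACG, read on both strands as TGACG or CGTCA. In DUSP14 they mark the GC box, GGGCGG or CCGCCC.
DUSP1, chr5:172771291-172771380, minus strand, 185 to 96 bases before the start: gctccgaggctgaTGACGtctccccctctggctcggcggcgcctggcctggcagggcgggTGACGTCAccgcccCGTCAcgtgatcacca
DUSP8, chr11:1572332-1572401, minus strand, 130 to 61 bases before the start: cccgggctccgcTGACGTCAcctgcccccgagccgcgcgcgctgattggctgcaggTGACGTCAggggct
DUSP14, chr17:37489751-37489860, plus strand, 140 to 31 bases before the start: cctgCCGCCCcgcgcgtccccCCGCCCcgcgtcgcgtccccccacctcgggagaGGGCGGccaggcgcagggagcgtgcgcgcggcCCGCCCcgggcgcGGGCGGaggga
The element TGACGTCA occurred once in the DUSP1 window, 125 bases before the start, and at 2 places in the DUSP8 window, 118 and 74 bases before the start. Of 22199 promoter entries of protein-coding genes, 2.26% held it and 0.0631% (14 entries) held it at least 2 times. The shorter form occurred 4 times in each of these windows, counting the matches inside the full elements, and in 27.9% of all entries. In DUSP1 the CGTCA 111 bases before the start overlaps an E-box (CACGTG, in 8.34% of entries), and a TATA box (TATAAA, 9.47%) lies 30 bases before the start. The GC box was found 5 times in the DUSP14 window and 4 times each in those of DUSP1 and DUSP8. It occurred in 8 of the 9 member entries and in 56.3% of all entries, and the share of entries with as many matches was not counted. GC boxes inside the DUSP1 stretch, 132 and 117 bases before the start, are left in lower case. Neither the AP-1 site TGANTCA (6.15% of all entries) nor the CArG box (1.25%) occurred in a member entry. The decamer motif of p53 was found in the entry of DUSP7 and in 6.21% of all entries. A match of letters is a description of the window and not a test of binding.

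DUSP1 is a nuclear phosphatase, an immediate-early gene that acts chiefly on p38 and JNK (GRCh38 chr5:172768096-172771195). It stood at 108 and 37.6 CPM in DMSO, 122 and 56.7 CPM in 0.2 μM doxorubicin and 95.6 CPM in 0.34 μM doxorubicin. Replicate 1 was the higher library in both pairs, and the groups overlapped throughout. The mean was 73.0 ± 50.0 CPM in DMSO (SD, n = 2) and 91.3 ± 32.6 CPM in doxorubicin (SD, n = 3). The fit put its log2 fold change at 0.32 (standard error 0.48, 95% interval -0.82 to 1.47, edgeR adjusted p = 0.697), and at -0.26 without DMSO replicate 2. The interval is wide on both sides of 0, so that neither a lower nor a higher level was detectable with these libraries.

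DUSP2, a nuclear phosphatase best known from immune cells, was close to absent. Its raw counts were 1 and 5 in DMSO, 2 and 2 in 0.2 μM doxorubicin and 0 in 0.34 μM doxorubicin, where a count of 0 allows up to 0.0827 CPM (3 counts). The gene was removed by the filter and not tested. Over the groups, 6 counts stood against 4, a ratio of doxorubicin to DMSO of 0.400 with an exact 95% Poisson interval from 0.0831 to 1.69, which covers counting error only.

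DUSP5, a nuclear phosphatase specific for ERK, had the largest log2 fold change of the 9 members tested (GRCh38 chr10:110497907-110511533). Its level was 11.9 and 17.4 CPM in DMSO, 38.5 and 53.8 CPM in 0.2 μM doxorubicin and 63.4 CPM in 0.34 μM doxorubicin. All doxorubicin libraries lay above both DMSO libraries, and the lowest treated library was above the highest control by more than the spread within DMSO. The mean was 14.6 ± 3.85 CPM in DMSO (SD, n = 2) and 51.9 ± 12.6 CPM in doxorubicin (SD, n = 3), a fold of 3.55. On the log2 scale this was 1.83 (standard error 0.28, 95% interval 1.15 to 2.50), and the edgeR adjusted p of 0.0101 missed the threshold of 0.01 narrowly. Across the alternative settings and left-out libraries it stayed between 1.57 and 2.11, with adjusted p-values from 3.41e-08 to 0.0469, on either side of the threshold.

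DUSP4, an inducible nuclear phosphatase of ERK and JNK, had the mirror image of the DUSP1 pattern between libraries. It measured 56.8 and 160 CPM in DMSO, 68.6 and 125 CPM in 0.2 μM doxorubicin and 80.8 CPM in 0.34 μM doxorubicin. Replicate 2 was the higher library in both pairs, and the doxorubicin libraries all lay between the DMSO libraries. The mean was 109 ± 73.3 CPM in DMSO (SD, n = 2) and 91.4 ± 29.5 CPM in doxorubicin (SD, n = 3). In the fit the log2 value was -0.25 (standard error 0.44, 95% interval -1.31 to 0.81, edgeR adjusted p = 0.747). It turned positive, to 0.66, when DMSO replicate 2 was left out.

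DUSP6 and DUSP7 are the cytoplasmic phosphatases that prefer ERK, and DUSP6 is a classical read-out of ERK activity. DUSP6 (GRCh38 chr12:89347235-89352501, minus strand) stood at 34.3 and 27.5 CPM in DMSO, 25.8 and 23.2 CPM in 0.2 μM doxorubicin and 22.8 CPM in 0.34 μM doxorubicin. All treated libraries were below both controls, though the gap between the nearest libraries was smaller than that between the DMSO libraries. The fitted log2 difference was -0.37 (standard error 0.17, 95% interval -0.78 to 0.039, edgeR adjusted p = 0.200). DUSP7 (GRCh38 chr3:52048919-52056571, minus strand) measured 45.0 and 36.9 CPM in DMSO, 45.0 and 40.4 CPM in 0.2 μM doxorubicin and 47.9 CPM in 0.34 μM doxorubicin. The groups overlapped, and the log2 fold change of 0.12 (standard error 0.17, 95% interval -0.28 to 0.51, edgeR adjusted p = 0.683) was the smallest in size of the family. In RefSeq, which is not the annotation used for counting, both genes overlap other genes, POC1B-DUSP6 and LOC124906238. The sources used here do not say whether counting used strand. Where reads were shared with these neighbours, the counts of DUSP6 and DUSP7 could include or lack them.

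DUSP8, DUSP10 and DUSP16 prefer JNK and p38 over ERK. DUSP8 was the lowest of them, with raw counts of 115 and 13 in DMSO, 153 and 40 in 0.2 μM doxorubicin and 214 in 0.34 μM doxorubicin. On the CPM scale these were 4.39 and 0.509, 5.92 and 1.66, and 5.90. The replicate 2 libraries of both treatments were the low ones, as for DUSP1. The fitted log2 difference was 0.88 with a standard error of 0.88 (95% interval -1.23 to 2.98, edgeR adjusted p = 0.550), and it went from 0.028 to 3.13 when one or the other DMSO library was left out. DUSP8 (GRCh38 chr11:1554051-1572848, minus strand) overlaps KRTAP5-AS1 and LOC124902608 in RefSeq, and its counts could include or lack reads shared with them.

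DUSP10 (GRCh38 chr1:221701424-221742089, minus strand), found in both nucleus and cytoplasm, stood at 9.19 and 6.03 CPM in DMSO, 11.7 and 19.0 CPM in 0.2 μM doxorubicin and 13.6 CPM in 0.34 μM doxorubicin. All treated libraries were above both controls, but the treated libraries differed among themselves more than the controls did. The mean was 7.61 ± 2.24 CPM in DMSO (SD, n = 2) and 14.8 ± 3.82 CPM in doxorubicin (SD, n = 3), a fold of 1.94. The log2 fold change of 0.96 (standard error 0.30, 95% interval 0.23 to 1.68) had an adjusted p of 0.0834 in edgeR and of 0.0209 in DESeq2. DUSP16 (GRCh38 chr12:12473282-12562863, minus strand), which shuttles between nucleus and cytoplasm, measured 19.2 and 13.2 CPM in DMSO, 18.1 and 15.4 CPM in 0.2 μM doxorubicin and 20.9 CPM in 0.34 μM doxorubicin. Its groups overlapped, and the fitted log2 difference was 0.16 (standard error 0.24, 95% interval -0.40 to 0.73, edgeR adjusted p = 0.684).

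DUSP14 is a small phosphatase without the docking domain that the other members use to hold a MAP kinase (GRCh38 chr17:37488566-37513498, plus strand). It stood at 30.8 and 34.4 CPM in DMSO, 60.0 and 92.0 CPM in 0.2 μM doxorubicin and 76.1 CPM in 0.34 μM doxorubicin. The DMSO libraries were close to each other, and all treated libraries lay well above them. The mean was 32.6 ± 2.55 CPM in DMSO (SD, n = 2) and 76.0 ± 16.0 CPM in doxorubicin (SD, n = 3), a fold of 2.33. The fitted log2 difference was 1.22 (standard error 0.21, 95% interval 0.71 to 1.73, edgeR adjusted p = 0.0145). Its range over the alternatives was 1.07 to 1.37, with adjusted p-values from 1.15e-05 to 0.0606.

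**Figure D2:**
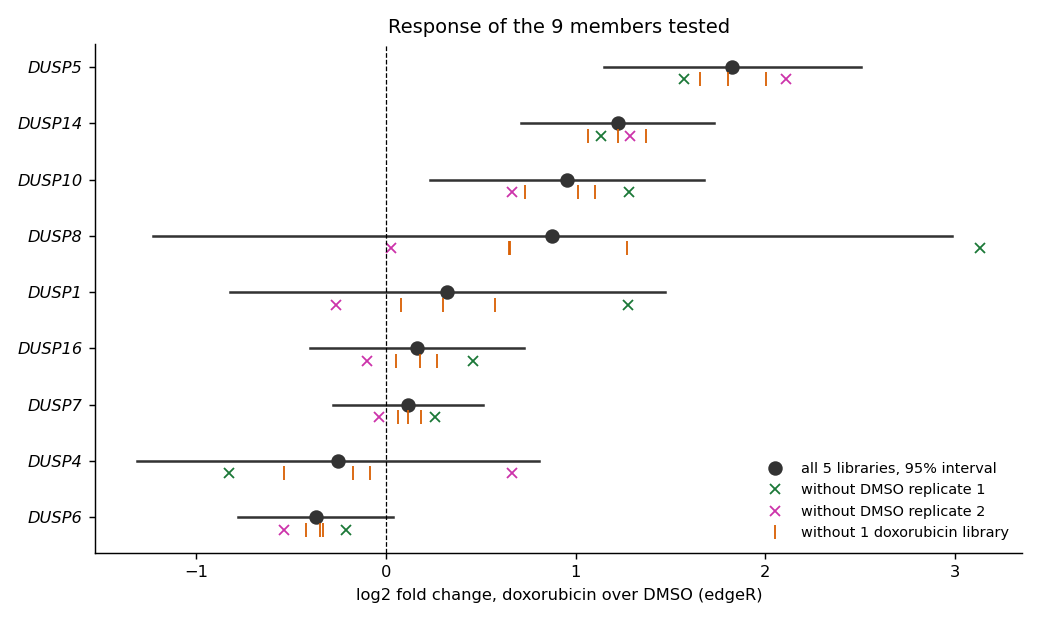
Log2 fold change of doxorubicin over DMSO for the 9 members tested (dots, edgeR, with 95% intervals as lines) and the values with each library left out in turn (crosses for DMSO libraries, ticks for doxorubicin libraries). The intervals of DUSP5, DUSP14 and DUSP10 lie above 0, and the crosses of DUSP1, DUSP4, DUSP7 and DUSP16 fall on both sides of 0.

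The comparison of 0.34 with 0.2 μM doxorubicin asks whether the dose mattered, with 1 library at the higher dose, whose spread was taken from the other pairs. edgeR called 0% of 14745 genes, with 27 genes at an unadjusted p under 0.05, none of them a member, and DESeq2 and limma also called 0 genes (33 and 24 at an unadjusted p under 0.05). The count at an unadjusted p under 0.05 was 393 without replicate 1 of 0.2 μM doxorubicin, 13 without replicate 2, and 43 and 37 without DMSO replicate 1 and 2, with 0 members in each. The log2 differences of the members ran from -0.26 for DUSP4 to 0.63 for DUSP8. DUSP5 was 0.46 higher at 0.34 μM on the log2 scale, with a 95% interval from -0.36 to 1.28. DUSP14 differed by 0.0041, with an interval from -0.76 to 0.77. These intervals are wide enough to hold a change of more than 1.5-fold in DUSP14 in either direction.

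Levels of different genes were compared as CPM per kb of the canonical transcript (GENCODE lengths). In DMSO the highest means were those of DUSP1 (36.2 CPM per kb), DUSP14 (22.1) and DUSP4 (19.6), followed by DUSP7 (12.2), DUSP6 (8.51), DUSP5 (5.91), DUSP10 (2.94), DUSP16 (2.43), DUSP8 (0.507) and DUSP2 (0.0694). Per kb of the canonical transcript, the library ranges of the first 4 members overlapped from each to the next. So did those of DUSP10 with DUSP16 and DUSP8 with DUSP2, while DUSP7, DUSP6, DUSP5 and DUSP10 were set apart from each other. In doxorubicin the order of the mean levels was DUSP14 (51.6 CPM per kb), DUSP1 (45.3), DUSP5 (20.9), DUSP4 (16.5), DUSP7 (13.2), DUSP6 (6.59), DUSP10 (5.71), DUSP16 (2.72), DUSP8 (0.931) and DUSP2 (0.0317). DUSP5 was below DUSP6 in DMSO and above it in doxorubicin, where its range overlapped that of DUSP4. DUSP14 and DUSP1 overlapped and could not be ordered, and with the union of all exons as the length DUSP1 stood first in both groups. With that length DUSP6 stood above DUSP7 in DMSO, and their library ranges overlapped. The DMSO libraries were then at 8.89 and 7.12 CPM per kb for DUSP6 and 7.94 and 6.52 for DUSP7. The lower DUSP7 library was also below the higher DUSP5 library, at 6.84. In DMSO, DUSP4 stood above DUSP14 with that length. Among 12794 tested genes with a length, the mean level of DUSP1 over all libraries lay at percentile 88.8 and that of DUSP14 at 88.2, whereas DUSP16 lay at 29.1 and DUSP8 at 14.6.

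Summed over the 10 members, the level was 120 and 101 CPM per kb in DMSO, 158 and 163 in 0.2 μM doxorubicin and 169 in 0.34 μM doxorubicin. All treated libraries were above both controls in this sum, which is a description of the members. The share of DUSP5 in the sum was 4.01% and 6.94% in DMSO, 9.83% and 13.3% in 0.2 μM doxorubicin and 15.1% in 0.34 μM doxorubicin. DUSP14 made up 17.4% and 23.1% in DMSO, 25.8% and 38.2% in 0.2 μM doxorubicin and 30.5% in 0.34 μM doxorubicin. The share of DUSP1 followed the library more than the treatment, with 44.9% and 18.5% in DMSO, 38.2% and 17.3% in 0.2 μM doxorubicin and 28.0% in 0.34 μM doxorubicin.

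**Figure D3:**
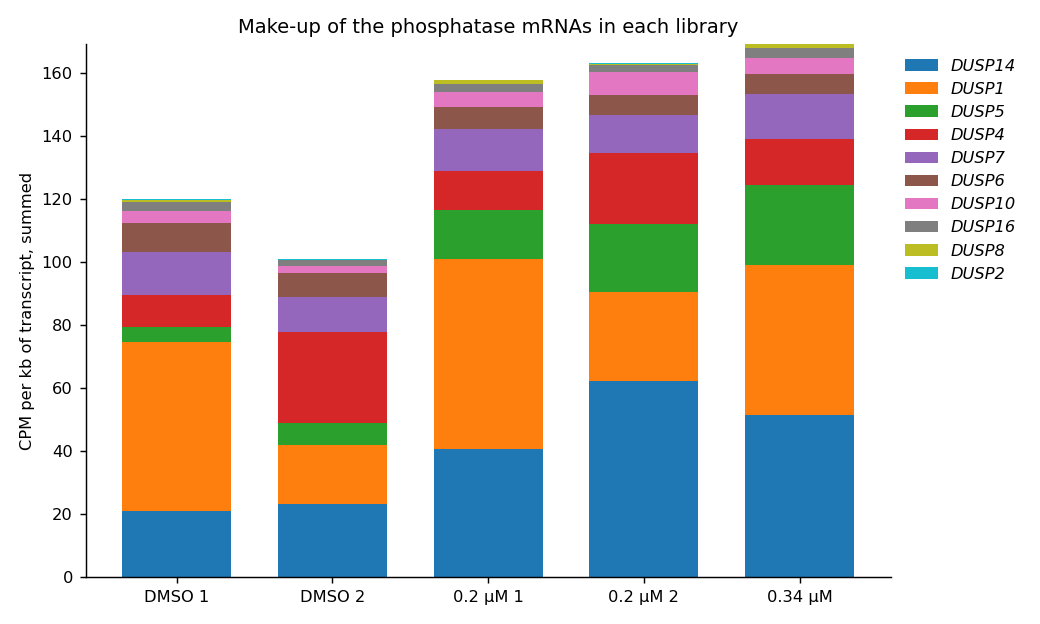
Level of each member in each library, stacked, in CPM per kb of the canonical transcript. The stacks reach 120 and 101 in DMSO and 158 to 169 in doxorubicin, and the DUSP5 and DUSP14 segments are larger in all doxorubicin libraries than in both DMSO libraries.

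DUSP1, DUSP4 and DUSP8 varied widely within a treatment. The DMSO libraries differed by 1.53 on the log2 scale for DUSP1, by 1.50 for DUSP4 and by 2.94 for DUSP8, more than 95.2%, 94.9% and 99.2% of all genes tested. In the 0.2 μM pair the differences were 1.10, 0.86 and 1.79, more than 91.9%, 87.3% and 97.4% of all genes. The median gene differed by 0.365 between the DMSO libraries and by 0.293 between the 0.2 μM libraries. For DUSP14 the DMSO difference was 0.16 and for DUSP5 0.54, below the log2 fold change of each.

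The libraries in which DUSP1 and DUSP8 were high were also those with high mRNA of the immediate-early transcription factors FOS and EGR1, which are switched on within minutes of MAP kinase activation. FOS stood at 118 and 1.18 CPM in DMSO, 127 and 0.291 CPM in 0.2 μM doxorubicin and 50.3 CPM in 0.34 μM doxorubicin. EGR1 measured 355 and 4.27 CPM in DMSO, 232 and 1.83 CPM in 0.2 μM doxorubicin and 172 CPM in 0.34 μM doxorubicin. In both genes the replicate 2 libraries were the low ones, and the log2 fold changes had standard errors of 1.87 and 1.78. ETV4, an ERK-dependent transcription factor, was high where DUSP4 was high within each pair, with 5.87 and 19.3 CPM in DMSO, 1.70 and 4.41 CPM in 0.2 μM doxorubicin and 2.95 CPM in 0.34 μM doxorubicin. The part of this difference between libraries in the values of DUSP1, DUSP4 and DUSP8 was not tested. DUSP5 was higher in replicate 2 of both pairs, by 0.54 and 0.48 on the log2 scale, and DUSP14 by 0.16 and 0.62. DUSP10 was higher in replicate 1 of DMSO and in replicate 2 of 0.2 μM doxorubicin. Replicate 1 was the higher of both pairs for DUSP6 (by 0.32 and 0.15), DUSP7 (0.28 and 0.16) and DUSP16 (0.54 and 0.23). DUSP6 thus lay on the side opposite to ETV4 in both pairs.

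**Figure D4:**
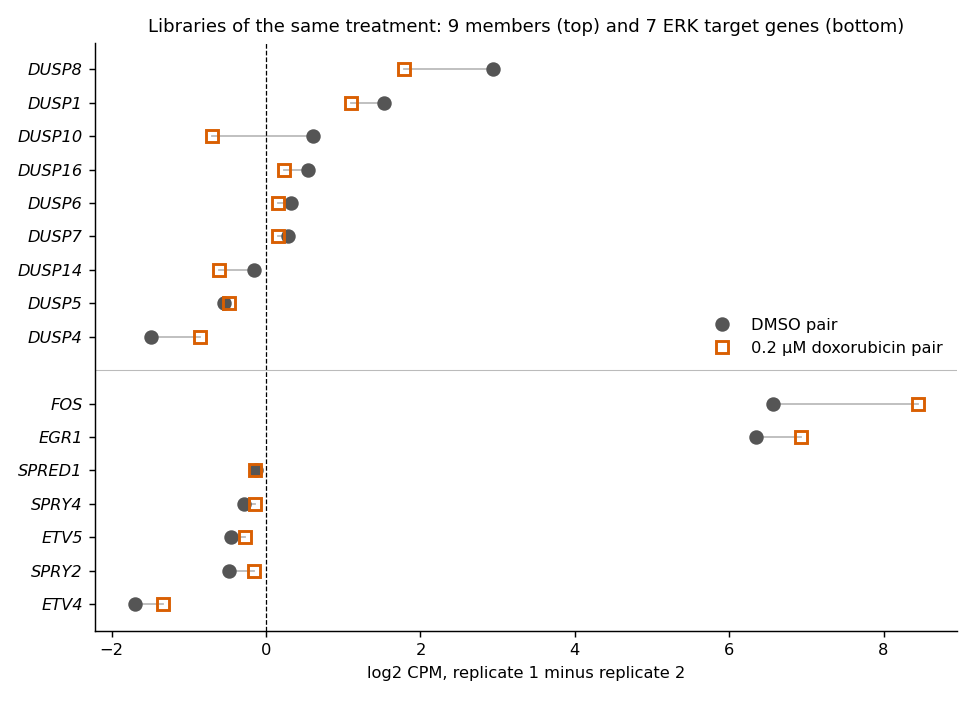
Difference in log2 CPM between the libraries of one treatment (replicate 1 minus replicate 2) for 9 members and 7 ERK target genes, with dots for the DMSO pair and squares for the 0.2 μM doxorubicin pair. DUSP8, DUSP1, DUSP16, DUSP6 and DUSP7 lie on the same side as FOS and EGR1 in both pairs. DUSP4, DUSP5 and DUSP14 lie on the side of ETV4, ETV5, SPRY2, SPRY4 and SPRED1, and DUSP10 changes side.

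The rest of the MAP kinase pathway was read from the same fit. Among 111 tested genes of its lists, 0 passed the threshold higher and 1 lower, beside 4.02% called among all genes, and the median of their log2 fold changes was -0.078, beside 0.013. None of the 10 MAP kinases tested passed. The log2 fold changes were -0.16 for MAPK3 (ERK1), -0.044 for MAPK8 (JNK1) and -0.089 for MAPK14 (p38 alpha), with edgeR adjusted p between 0.557 and 0.884. MAPK9 (JNK2) had the smallest p of them, with 51.0 and 56.5 CPM in DMSO and 35.7, 36.5 and 36.9 CPM in doxorubicin (log2 fold change -0.56, edgeR adjusted p = 0.0452).

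Upstream of the MAP kinases, none of 7 MAP kinase kinases, 21 RAF and MAP3K kinases or 12 RAS proteins and adaptors passed. MAP2K3, an activator of p38, stood at 29.7 and 41.4 CPM in DMSO and 70.5, 80.8 and 93.9 CPM in doxorubicin (log2 fold change 1.20, edgeR adjusted p = 0.0151). The fitted log2 differences were 0.89 for MAP3K12, an activator of JNK signalling (adjusted p = 0.0162), and -0.74 for RASA1, which turns RAS off (adjusted p = 0.0169). Among 11 kinases activated by MAP kinases and 7 scaffolds none passed either. Their smallest p-values belonged to RPS6KA1 (log2 fold change 1.21, adjusted p = 0.0238) and the JNK scaffold SPAG9 (-0.37, adjusted p = 0.110).

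The targets and feedback genes of ERK had a median of -0.52 on the log2 scale, beside 0.013 over all genes tested. Of 16 tested genes, 11 were negative and 9 lay below both DMSO libraries in all doxorubicin libraries (23.4% of all genes), 2 lay above (24.3%), and 1 passed the threshold (4.02%). The 2 above were CCND1, which encodes cyclin D1, and EPHA2, an ephrin receptor, with log2 fold changes of 0.61 and 0.71 (edgeR adjusted p = 0.136 and 0.0474), named after their values were seen. The gene that passed was FOSL1, a transcription factor of the AP-1 family stabilized by ERK, which fell from 509 and 466 CPM in DMSO to 139, 166 and 128 CPM in doxorubicin (log2 fold change -1.76, standard error 0.17, edgeR adjusted p = 0.00186). Its call ended with the 0.2 μM libraries alone, in the fit of 3 conditions and without either DMSO library or replicate 1 of 0.2 μM, while its log2 fold change stayed between -1.87 and -1.68 and its adjusted p at or under 0.0132 in all 15 alternatives. SPRY4, a feedback inhibitor of receptor signalling, stood at 8.89 and 10.8 CPM in DMSO and 4.14, 4.57 and 4.55 CPM in doxorubicin (log2 fold change -1.16, edgeR adjusted p = 0.0191). The log2 fold changes were -0.58 for SPRY2, -0.35 for SPRED1, -2.06 for ETV4 and -0.70 for ETV5, and none of these passed (edgeR adjusted p = 0.105, 0.147, 0.0579 and 0.0505). DUSP6, itself an ERK target, was on the same side as these genes (-0.37, edgeR adjusted p = 0.200). DUSP5, which is one too, was on the other (1.83, edgeR adjusted p = 0.0101), and neither passed. DUSP4 was negative (-0.25) but turned positive without DMSO replicate 2.

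**Figure D5:**
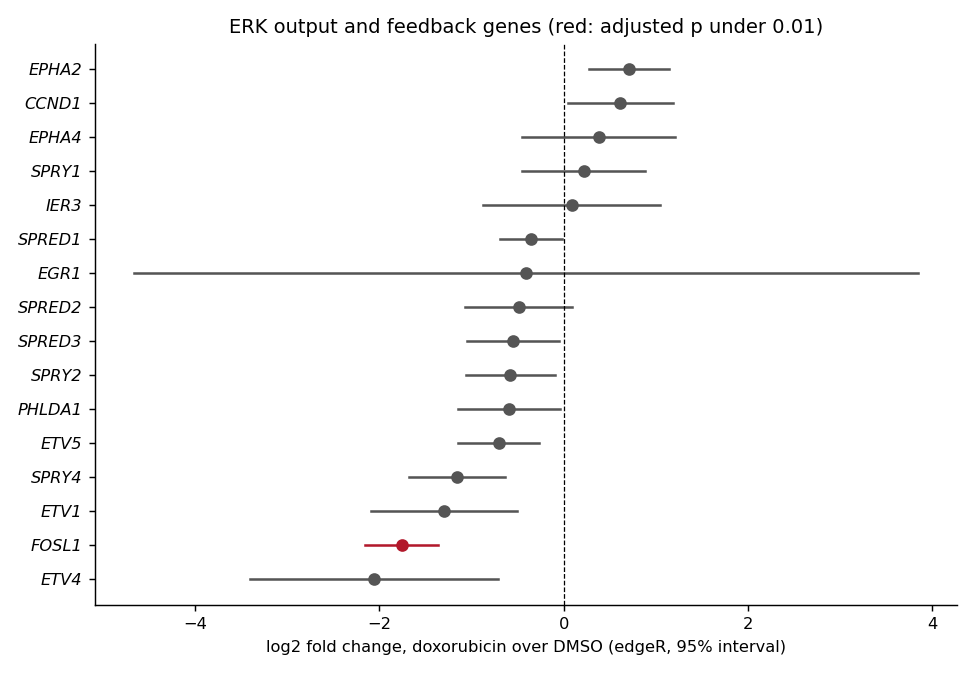
Log2 fold change of doxorubicin over DMSO for the 16 ERK output and feedback genes (dots, edgeR, with 95% intervals as lines, red where the adjusted p is under 0.01). FOSL1 is the gene in red, at -1.76, and 11 of the 16 lie below 0.

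Of 12 transcription factors regulated by MAP kinases none passed, with ATF3, a stress-induced factor, having the smallest p. It stood at 3.89 and 1.25 CPM in DMSO and 13.4, 15.3 and 12.8 CPM in doxorubicin (log2 fold change 2.42, edgeR adjusted p = 0.0200). Outside the members, 9 genes of the dual-specificity phosphatase family, not all of them MAP kinase phosphatases, and 6 other MAP kinase phosphatases were tested and 0 passed. DUSP3, a small phosphatase of ERK and JNK, measured 75.6 and 87.5 CPM in DMSO and 133, 134 and 135 CPM in doxorubicin (log2 fold change 0.72, edgeR adjusted p = 0.0212). PPM1D, a p53 target that dephosphorylates p38, stood at 23.5 and 16.7 CPM in DMSO and 44.9, 47.1 and 52.2 CPM in doxorubicin (log2 fold change 1.26, standard error 0.20, edgeR adjusted p = 0.0113). In these lists 2 of the 9 and 2 of the 6 genes lay above both controls in all treated libraries, DUSP3 and PPM1D among them (24.3% of all genes), and as many lay below (23.4%). Those below were DUSP18, STYX, PPM1B and PPP2CA, named after their values were seen, with log2 fold changes from -0.53 to -0.36.

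Several members, DUSP1 among them, have short-lived mRNAs with AU-rich elements, and 8 proteins that bind such elements were therefore read as well. Of these, 7 were negative on the log2 scale, and the median was -0.40, beside 0.013 over all genes tested. The test called 1 of them, beside 4.02% of all genes. HNRNPD, which promotes the decay of such mRNAs, fell from 451 and 384 CPM in DMSO to 167, 185 and 157 CPM in doxorubicin (log2 fold change -1.30, standard error 0.16, edgeR adjusted p = 0.00422). The call was lost whenever a library was left out and in the fit of 3 conditions, with adjusted p up to 0.0307 and log2 fold changes from -1.43 to -1.19. The part of HNRNPD in the levels of the members was not tested.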

How the data were processed

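For poly-A RNA of 5 libraries, the authors aligned paired-end reads with STAR (hg38) and used Rsubread and the iGenomes annotation for gene counts. The deposited counts are raw and not normalized. The sources used here name no versions, no strand setting and no rule for reads with several alignments. A second table with the authors' own fold changes and p-values was not used, and 0 columns of the count table were left out.

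The table was analysed in R 4.3.3 with edgeR 4.0.16 (TMM, default filter with a minimum count of 10 and a total of at least 15, quasi-likelihood test), 3 doxorubicin against 2 DMSO libraries, without covariates, and p-values were adjusted over all genes tested by the Benjamini-Hochberg method. The study's methods name DESeq2 for its test. Here DESeq2 1.42.0 and limma 3.58.1 were alternatives. Each standard error was obtained from the log2 fold change and its F statistic. CPM values are TMM-normalised, with no prior count. Differences in log2 CPM between libraries used a prior count of 2. The fits were run on simulated counts with the same dispersion for all genes and no difference between replicates. Those runs checked the sign and size of added changes and do not give error rates for these libraries. Pairs of libraries of one treatment differed by a chi-square per degree of freedom of 117 and 75.3, so all were counted as separate.

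The members and gene lists were chosen with earlier results of these data known. The genes named are all members, fixed examples, and from each list up to 3 genes past the threshold or, where none passed, the gene with the smallest p. One of the fixed examples and 1 marker gene are not reported here. Positions and promoters are from RefSeq on GRCh38.p14. Transcript lengths are from GENCODE, lifted to GRCh37, and were used as lengths only. If the libraries of a treatment were not separate cultures, p-values measure technical spread only.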

Additional observations from a re-analysis of the deposited data

How the results depend on the processing

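The number of members past the threshold, 0 with all libraries, was 2 with DESeq2 (14.1% of all genes called), without the filter for low counts (4.92%) and at an adjusted p under 0.05 (13.6%), and 1 with upper quartile normalization (3.93%), with a filter at 1 CPM (4.48%) and with thinned counts (4.30%). The members were DUSP5 and DUSP14 where there were 2, and DUSP5 where there was 1. The fit of the 0.2 μM libraries alone is the same fit as that without the 0.34 μM library. It is counted under both settings among the 15 alternatives of a gene. With limma, with RLE normalization, with the 0.2 μM libraries alone and with any library left out (lowest 0, highest 0) it was 0. Of the other genes in the lists (MAP kinase pathway and AU-rich element binding proteins), 2 passed with all libraries (FOSL1 and HNRNPD), 20 with DESeq2, 5 without the filter, 0 with the 0.2 μM libraries alone, 0 in the fit of 3 conditions and 0 to 1 with a library left out. With a library left out, log2 fold changes ran from -0.26 to 1.28 for DUSP1, -0.82 to 0.66 for DUSP4, -0.035 to 0.26 for DUSP7 and -0.099 to 0.46 for DUSP16. Without DMSO replicate 2 each of these 4 changed sign, and 49 genes in all passed (0.335%). The cause was not tested. Between the doses, 0 members passed in each alternative.

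Replicate numbers are not stated to mark a shared culture or day, and only 2 pairs exist. The difference of replicate 1 minus replicate 2 correlated between the treatments across 14187 genes (r = 0.528, genes not being independent), and 8 of 9 members differed the same way in both pairs, beside 58.6% of all genes tested. With the replicate number as a block and the 0.34 μM library left out, 2 members (DUSP5 and DUSP14), 8 other genes of the lists and 1249 genes in all (8.99%) passed. With 2 DMSO libraries, the intervals of DUSP1, DUSP4 and DUSP8 are over 2 log2 units wide.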
